A study of Mus musculus with 6 samples.

Results

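The insulin-like growth factor (IGF) axis and a set of imprinted growth genes were followed in the lens placode region of mouse embryos that had lost the acetyltransferases CBP and p300. The 10 genes Igf2, Igf1r, Igf2r, Igfbp2, Igfbp5, H19, Dlk1, Peg3, Mest and Plagl1 were chosen by name, out of 19057 genes with a named probe, and every probe carrying one of these names was used. Of the 10 genes, 9 had a named probe, with 24 probes among them, and H19 was not analysed here because no named probe carries its symbol. Of the 24 probes, 20 were detected on at least 3 of the 6 arrays and were tested, and the other 4 (Dlk1, Igf1r, Igfbp2 and Plagl1, 1 probe each) were too dim.

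The tested embryos, called DCKO here, carried floxed CBP and p300 alleles with the Pax6-Cre transgene, in which Pax6 regulatory DNA active in the early eye turns on Cre in the surface ectoderm that will form lens and cornea, and the WT embryos were Pax6-Cre-negative and, by the study's methods, had the same floxed alleles. Both were of a mixed FVB and 129 background and were taken at E10.5, and the lens region was cut out by laser microdissection. The sample records call the DCKO tissue surface ectoderm and the WT tissue lens placode, so genotype and tissue name cannot be told apart. Each genotype gave 3 arrays of 1 bead chip, and the sample records state that RNA of 3 embryos per genotype was pooled before triplicate amplification, in which case p-values measure only technical spread, while the article describes biological replicates. In bulk tissue of this kind, fewer cells of a type and less RNA per cell cannot be told apart.

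IGF2 and IGF1 are secreted growth factors that act through the tyrosine kinase receptor IGF1R, whereas IGF2R carries IGF2 to lysosomes for degradation and the IGF binding proteins hold the ligands in the extracellular space. Imprinted genes are expressed from only the maternal or only the paternal chromosome. Paternally expressed ones such as Igf2 often promote fetal growth, and maternally expressed ones such as Igf2r and H19 often restrain it. In the lens, IGFs are known for effects on growth and fibre differentiation.

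The promoter sequences of Dlk1, Igfbp2 and Mest are shown because these are the genes whose level differed between genotypes by the test below. They come from RefSeq on GRCm38.p6, where 9 of the 10 genes matched, run 5′ to 3′ from 250 bases before to 50 bases after an annotated start, and for genes with several starts the window with the most CpG dinucleotides (the lowest coordinate among equals) is given. Capitals mark matches on either strand to TGACG (the core of the cAMP response element, CRE, bound by CREB, the factor for which CBP is named), GGGCGG (the GC box bound by Sp1), CCAAT and TATAAA.
Dlk1, chr12:109452573-109452872, plus strand: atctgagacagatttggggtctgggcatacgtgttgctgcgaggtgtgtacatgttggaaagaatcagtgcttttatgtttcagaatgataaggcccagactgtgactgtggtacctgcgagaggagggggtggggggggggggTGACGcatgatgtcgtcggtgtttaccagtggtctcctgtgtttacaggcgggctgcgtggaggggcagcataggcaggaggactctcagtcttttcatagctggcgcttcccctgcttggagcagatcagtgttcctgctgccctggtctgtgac
Igfbp2, chr1:72824230-72824529, plus strand: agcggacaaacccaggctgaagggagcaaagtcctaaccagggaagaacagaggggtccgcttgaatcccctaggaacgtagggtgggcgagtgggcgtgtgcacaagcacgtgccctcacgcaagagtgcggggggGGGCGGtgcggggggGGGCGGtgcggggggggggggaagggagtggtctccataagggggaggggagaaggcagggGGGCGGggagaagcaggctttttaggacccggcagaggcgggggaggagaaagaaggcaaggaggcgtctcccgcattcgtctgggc
Mest, chr6:30737800-30738099, plus strand: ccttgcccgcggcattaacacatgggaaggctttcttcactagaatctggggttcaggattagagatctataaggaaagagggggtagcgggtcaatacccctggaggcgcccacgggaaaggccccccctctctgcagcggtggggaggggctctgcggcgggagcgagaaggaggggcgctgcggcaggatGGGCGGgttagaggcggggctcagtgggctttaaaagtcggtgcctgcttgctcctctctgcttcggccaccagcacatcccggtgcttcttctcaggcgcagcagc

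The window of Dlk1 held 1 TGACG, 106 bases before the start, and no GC box. That of Igfbp2 held 3 GC boxes and that of Mest held 1. Among all 32851 windows of this length, 20.8% held TGACG, 35.7% held GGGCGG, 37.4% held CCAAT and 13.6% held TATAAA. CpG dinucleotides numbered 9 in the single Dlk1 window. They numbered 18 in the Igfbp2 window and 17 in the Mest window, which were picked for that number, and down to 14 and 8 at the other starts of these genes, so neither their CpG nor their GC box counts can be set against all windows. Of the 9 genes, Peg3 had the complete element TGACGTCA, which contains both of its TGACG matches and was in 1.79% of all windows. A match describes the letters only and is no evidence of binding.

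Values are log2 intensities after background correction and quantile normalization, and differences are DCKO minus WT. A call required an adjusted p under 0.05 from limma, with the Benjamini-Hochberg method over all 19552 tested probes. The lowest detected log2 level ranged between 5.36 and 5.53 over the arrays. By its brightest tested probe, Dlk1 and Igfbp2 were higher in DCKO, Mest was lower, and the other 6 genes did not pass, where 4.58% of all tested probes were called (1.77% higher and 2.81% lower). Counted by probe, 4 of 20 were called lower (all 3 of Mest and 1 of Igfbp5) and 2 were called higher. The genotypes did not overlap for 14 of the 20 probes, 12 of them lower in DCKO, against 27.4% of all tested probes (14.4% lower). Probes of 1 gene share that gene's RNA and are not independent. The genes were also chosen with earlier results of these data known, so these shares are descriptions only.

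**Figure D1:**
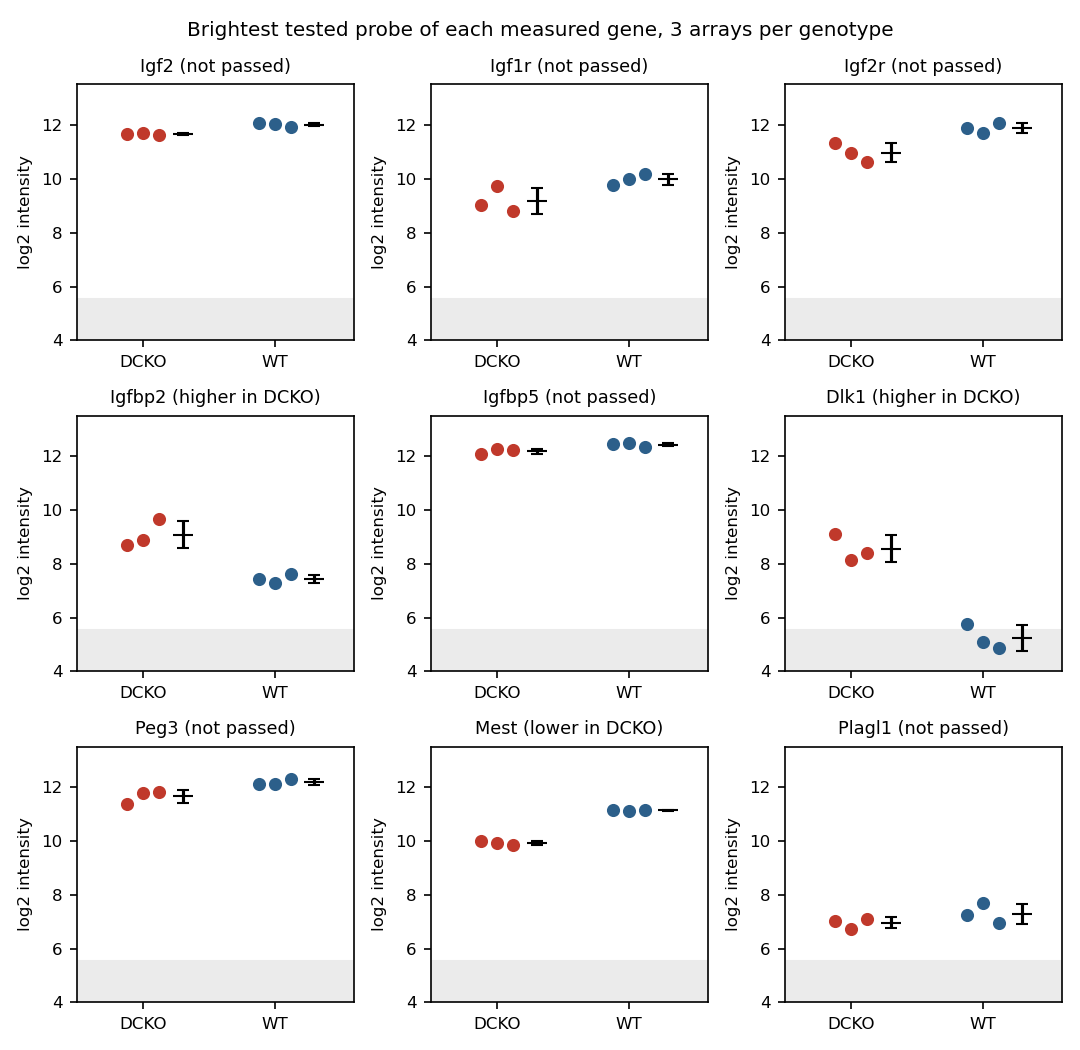
Log2 intensity of the brightest tested probe of each of the 9 measured genes on 3 DCKO arrays (left, red) and 3 WT arrays (right, blue), with the mean and SD in black and the range below 5.53, the highest of the arrays' lowest detected levels, shaded. Dlk1 lies at 8.15 to 9.11 in DCKO and at 4.86 to 5.77 in WT, and only Plagl1 overlaps between genotypes.

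Igf2, the ligand of the axis, was strongly expressed in both genotypes. Its only probe read 11.66, 11.69 and 11.63 in DCKO, against 12.06, 12.03 and 11.94 in WT. Every DCKO array was below every WT array, but the difference was small. The log2 fold change was -0.35 (SE 0.20, 95% interval -0.83 to 0.13), which limma did not call (adjusted p = 0.387).

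Igf1r, the receptor that signals, had 3 tested probes, which did not point the same way. The brightest read 9.03, 9.73 and 8.81 in DCKO, against 9.78, 10.01 and 10.17 in WT. All DCKO values lay below all WT values, DCKO replicate 2 by a narrow margin. The log2 fold change was -0.79 (95% interval -1.52 to -0.059, adjusted p = 0.210 from limma). The next probe had a log2 fold change of 0.063 and the dimmest one of 0.45, and both overlapped. The dimmest was detected on 1 DCKO array and 2 WT arrays, with DCKO replicate 2 at 8.48 and the other DCKO arrays undetected. The fourth probe was undetected on every array (5.18 to 5.40 in DCKO and 4.97 to 5.21 in WT). With the mean of the 3 tested probes the gene's log2 fold change was -0.093.

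Igf2r, the clearance receptor and a maternally expressed imprinted gene, was lower in DCKO on both probes without passing. Its brightest probe read 11.32, 10.95 and 10.63 in DCKO, against 11.88, 11.72 and 12.06 in WT. The dimmer probe read 4.93, 5.34 and 6.47 in DCKO, against 7.23, 7.65 and 8.08 in WT, and was detected on 1 DCKO array. On both probes the genotypes were apart. The log2 fold change was -0.92 (SE 0.26, adjusted p = 0.111 from limma) for the brightest probe, and -2.07 (SE 0.45, adjusted p = 0.0567) for the dimmer one. With the mean of its probes, limma called Igf2r lower, at a log2 fold change of -1.50 (adjusted p = 0.0206), as it also did in 2 other settings.

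Igfbp2 and Igfbp5 encode IGF binding proteins and are neighbouring genes on chromosome 1, with 0 protein-coding genes between them in RefSeq. Igfbp2 rose in DCKO. Its tested probe read 8.69, 8.88 and 9.65 in DCKO, against 7.43, 7.28 and 7.60 in WT. DCKO replicate 3 was the highest and the WT arrays lay close together. The rise was 3.11-fold (log2 fold change 1.64, SE 0.31, adjusted p = 0.0408 from limma). This call ended when any 1 array was left out (adjusted p = 0.0517 to 0.140), while the fold change stayed between 1.35 and 1.83 on the log2 scale. The second Igfbp2 probe was detected on 1 DCKO array and on 0 WT arrays and was not tested (4.73 to 5.82 in DCKO and 4.73 to 4.92 in WT).

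For Igfbp5, all 3 probes had negative fold changes and 1 was called. The brightest read 12.06, 12.24 and 12.21 in DCKO, against 12.43, 12.48 and 12.35 in WT, a log2 fold change of -0.25 (95% interval -0.74 to 0.24, adjusted p = 0.551 from limma). The second read 10.73, 10.94 and 10.72 in DCKO, against 11.63, 11.55 and 11.35 in WT, and did not pass either (log2 fold change -0.71, adjusted p = 0.124). The dimmest read 9.72, 9.65 and 8.96 in DCKO, against 10.95, 10.90 and 11.04 in WT, and was called lower, by 2.86-fold (log2 fold change -1.52, adjusted p = 0.0365). All 3 probes kept the genotypes apart. The call of the dimmest probe ended when any 1 array was left out (adjusted p = 0.0538 to 0.133). Within arrays, the dimmest probe differed from the brightest by -3.24 to -2.34 in DCKO and by -1.59 to -1.31 in WT. With the mean of the 3 probes the gene's log2 fold change was -0.83 (adjusted p = 0.0598 from limma). For the difference between the dimmest and the brightest probe, the exact two-sided permutation test over the 6 arrays gave p = 0.1, the smallest that 3 against 3 arrays allow. Over the 11 such comparisons between probes of 1 gene, 4 reached that value, at an adjusted p of 0.275, so a difference in response between the probes was not established.

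**Figure D2:**
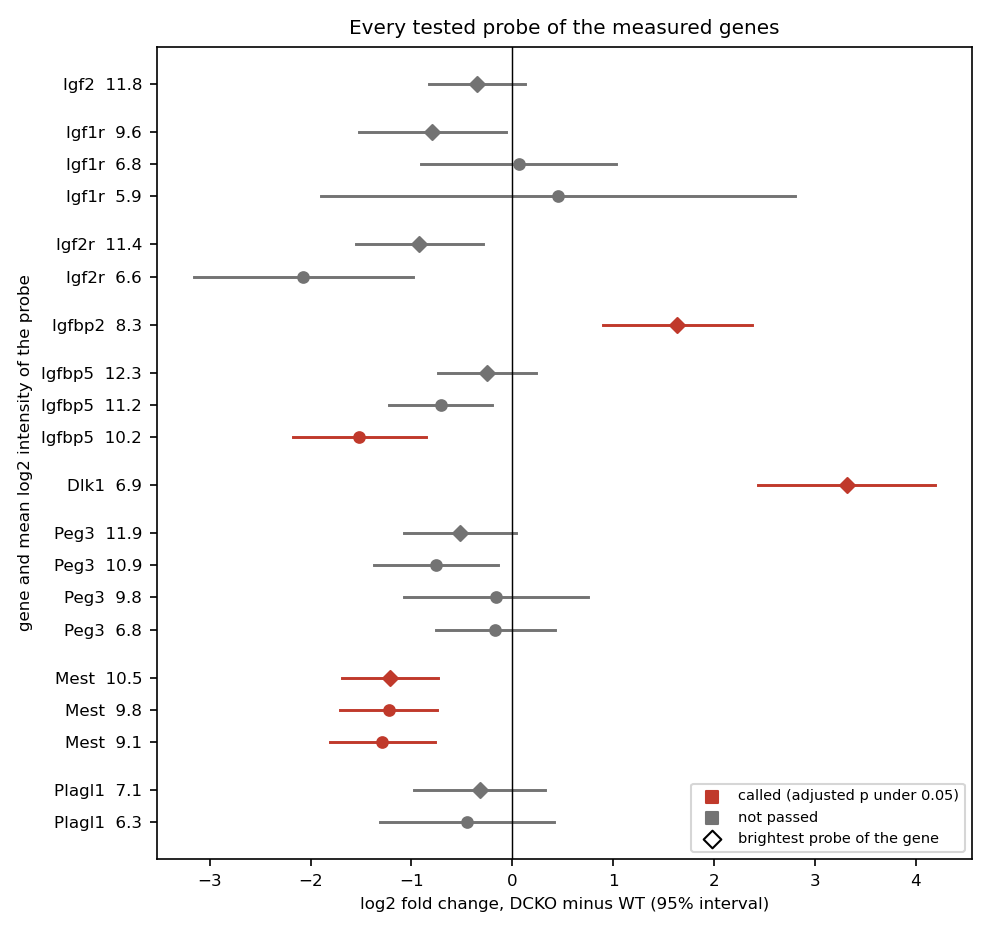
Log2 fold change (DCKO minus WT) of the 20 tested probes with 95% intervals, labelled by gene and mean log2 intensity, with called probes in red and the brightest probe of each gene as a diamond. The 3 Mest probes coincide near -1.2, the Igfbp5 probes spread between -0.25 and -1.52, and Dlk1 at 3.31 and Igfbp2 at 1.64 are the called increases.

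Dlk1, a paternally expressed gene for a membrane protein related to Notch ligands, showed the largest change of the 9 genes. Its tested probe read 9.11, 8.15 and 8.40 in DCKO, against 5.77, 5.09 and 4.86 in WT. In unnormalized intensity the same arrays read 838, 419 and 572 in DCKO, against 228, 194 and 213 in WT. It was detected on 3 DCKO arrays and on WT replicate 1 alone, so it entered the test mainly through DCKO. The log2 fold change was 3.31 (SE 0.37, adjusted p = 0.00686 from limma). With undetected WT arrays set to their lowest detected level and the detected one kept, the rise was at least 7.90-fold between means. The size of the fold change depended on how background was treated: it was 1.44 on the log2 scale with none subtracted and 3.99 with the processed values of the authors. The call was made in all 16 other settings tried, including each array left out in turn (adjusted p = 0.0198 to 0.0426). A second Dlk1 probe was detected on 0 DCKO arrays and 1 WT array, at 4.91, 5.21 and 5.10 in DCKO and 4.78, 5.08 and 5.76 in WT, so the rise was seen with 1 probe.

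Mest, a paternally expressed gene for an enzyme of the hydrolase family, fell by nearly the same amount on each of its 3 probes. The brightest read 9.97, 9.93 and 9.85 in DCKO, against 11.13, 11.10 and 11.16 in WT. Spread within a genotype was small beside the gap between genotypes. The fall was 2.32-fold (log2 fold change -1.21, SE 0.20, adjusted p = 0.0269 from limma). The second probe read 9.25, 9.08 and 9.13 in DCKO, against 10.40, 10.37 and 10.35 in WT, and the third read 8.54, 8.21 and 8.54 in DCKO, against 9.81, 9.69 and 9.66 in WT. Their log2 fold changes were -1.22 and -1.29, which lie -0.012 and -0.079 from that of the brightest probe. The call of the brightest probe ended with any 1 array left out (adjusted p = 0.0518 to 0.114), at fold changes of -1.24 to -1.18, and with no between-array normalization (log2 fold change -1.03, adjusted p = 0.0797).

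Peg3, a paternally expressed zinc finger gene, did not pass on any of 4 probes, all of which had negative fold changes. The brightest read 11.37, 11.77 and 11.81 in DCKO, against 12.11, 12.10 and 12.30 in WT (log2 fold change -0.52, 95% interval -1.07 to 0.035, adjusted p = 0.271 from limma). The second was also apart between genotypes, at -0.75 (adjusted p = 0.163). Both dimmer probes overlapped, at -0.16 and -0.17. DCKO replicate 1 was the lowest of the 6 arrays on 3 of the 4 probes, and on the other DCKO replicate 2 was lowest, at 10.27.

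Plagl1, a paternally expressed zinc finger transcription factor gene known in the mouse as a regulator of other imprinted genes, was dim, and its 2 tested probes overlapped between genotypes. Its brightest probe read 7.04, 6.74 and 7.11 in DCKO, against 7.23, 7.68 and 6.95 in WT. The log2 fold change was -0.32 (95% interval -0.97 to 0.33, adjusted p = 0.563 from limma). The dimmer tested probe gave -0.45 and did not pass. Another Plagl1 probe, detected only on DCKO replicate 1 and not tested, read 6.49, 5.30 and 5.38 in DCKO, against 4.76, 5.13 and 4.99 in WT. It lay higher in DCKO without overlap, opposite in sign to the tested probes, with 5 of its 6 values below detection.

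Over the 6 arrays, the genes whose pattern was most like that of Dlk1 were S100a10, Lrrk2 and Car9 (Pearson r = 0.997, 0.993 and 0.992). Igfbp2 was most like Irx3, Elp3 and Mal2 (r = 0.999, 0.997 and 0.996), and Mest was most like Fat4, Nid1 and Crim1 (r = 0.9999, 0.9995 and 0.998). These are descriptions over 6 arrays in which the genotype sets much of the pattern. Of 9816 genes compared, 4.68% had r above 0.9 with Dlk1, 3.63% with Igfbp2 and 5.54% with Mest.

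The other genes of the axis were counted by list, beside 4.58% of all tested probes called (1.77% higher and 2.81% lower). The lists were chosen with earlier results of these data known, so these counts are descriptions only. Of 13 listed IGF binding proteins and regulators, 9 were tested, 3 were higher (Igfbp2, Stc1 and Stc2), 1 was lower (Igfbp7) and 5 did not pass. Their median log2 fold change was 0.26, beside 0.0052 over all tested probes. Stc2, a stanniocalcin whose protein inhibits the protease PAPP-A that releases IGFs from binding proteins, read 9.17, 10.20 and 9.54 in DCKO, against 7.56, 7.52 and 7.19 in WT, and rose 4.64-fold (log2 fold change 2.21, SE 0.32, adjusted p = 0.0174 from limma). Its relative Stc1 read 8.96, 8.27 and 7.51 in DCKO, against 6.18, 4.73 and 5.01 in WT, where it was detected on 1 array and so entered the test mainly through DCKO, and rose at least 5.80-fold (adjusted p = 0.0325). Igfbp7, a secreted protein with low affinity for IGFs, read 8.94, 8.98 and 8.86 in DCKO, against 10.31, 10.39 and 10.30 in WT, and fell by 1.41 on the log2 scale (SE 0.20, adjusted p = 0.0164). Of 4 dimmer Igfbp7 probes, 2 were lower and 2 did not pass. Pappa itself was too dim to be tested. Igfbp4, another binding protein, was at 1.23 (adjusted p = 0.180), Igfals at -0.45 and Igfbp3 at 0.26, and none passed. Without 1 array, calls ended for Stc2 and Igfbp7 when any WT array was dropped (adjusted p = 0.0690 to 0.0821 for Stc2 and 0.0743 to 0.0797 for Igfbp7), and for Stc1 without DCKO replicate 1 or 2 or WT replicate 2 or 3 (adjusted p = 0.0721 to 0.121).

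Among 7 ligands and receptors, 4 were tested (Igf2, Igf1r, Igf2r and Insr), and limma called 0, with 2 lower and 0 higher at an unadjusted p under 0.05. By their brightest probes all 4 had negative fold changes, with a median of -0.57, where 49.6% of all tested probes were below 0. The 2 other tested Igf1r probes had positive ones. Insr, the insulin receptor, was at -0.30 (adjusted p = 0.703) and overlapped. The ligand gene Igf1 was detected on too few arrays for the test. The tested mRNA binding proteins Igf2bp1 and Igf2bp3, which bind Igf2 transcripts, were at -0.30 and -0.27 and limma called 0 of 2, with 0 at an unadjusted p under 0.05.

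Of 24 genes of insulin and IGF receptor signalling, 18 were tested. By the brightest probes, calls were 1 lower and 1 higher, the other 16 did not pass, and the median fold change was -0.022. The lower one was Irs2, an adaptor of both receptors, which read 5.23, 4.75 and 4.85 in DCKO, against 6.50, 6.44 and 6.71 in WT. No DCKO array detected it, so it entered the test only through WT, and its decrease was at least 2.17-fold (adjusted p = 0.0186 from limma). Its relative Irs1 was at 0.25 (adjusted p = 0.625). The higher one was Foxo3, a transcription factor held in check by Akt, which read 7.34, 7.47 and 7.05 in DCKO, against 4.99, 4.79 and 6.09 in WT, and was detected on 1 WT array, so that it too entered the test mainly through 1 genotype. It rose at least 3.16-fold (adjusted p = 0.0418). Pik3r1 at -1.46, Foxo1 at -1.28 and Eif4ebp1 at -1.06 did not pass (adjusted p = 0.142, 0.165 and 0.261). Mtor did not pass by its brightest probe (-0.23, adjusted p = 0.674 from limma). Of its dimmer probes, 1 was called lower and 1 did not pass. Irs2 was no longer called without DCKO replicate 2 or 3 or WT replicate 1, 2 or 3 (adjusted p = 0.0515 to 0.0900), and Foxo3 without any array but WT replicate 3 (adjusted p = 0.0795 to 0.133).

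Among the imprinted genes, limma called only Mest and Dlk1. Of 24 paternally expressed genes, 15 were tested, of which Mest was lower, Dlk1 was higher and 13 did not pass. Of all tested probes, 4.58% were called. The median log2 fold change of the 15 was -0.026. Rasgrf1, an exchange factor gene detected on 0 DCKO arrays, was at 4.94 ± 0.28 (SD, n = 3) in DCKO and 7.24 ± 1.02 (SD, n = 3) in WT (adjusted p = 0.0598 from limma). Dio3, a deiodinase gene of the same imprinted cluster as Dlk1, was detected on 1 WT array and so entered the test mainly through DCKO. It was at 7.42 ± 0.98 (SD, n = 3) in DCKO and 5.22 ± 0.75 (SD, n = 3) in WT (adjusted p = 0.0959). Nnat was at 6.94 ± 0.38 (SD, n = 3) in DCKO and 7.94 ± 0.17 (SD, n = 3) in WT (adjusted p = 0.0983). Of 12 maternally expressed genes, 7 were tested and limma called 0, with 2 lower and 2 higher at an unadjusted p under 0.05 and a median of -0.29. Ppp1r9a and Slc22a18 had fold changes of 1.79 and 1.68 (adjusted p = 0.108 and 0.0848). Meg3, the non-coding RNA gene next to Dlk1, was detected on 1 DCKO array and 3 WT arrays, at a fold change of -0.84 (adjusted p = 0.585), and overlapped. The growth inhibitor gene Cdkn1c was at -0.29 (adjusted p = 0.547) and Grb10, an inhibitor of both receptors, at 0.084 (adjusted p = 0.888).

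**Figure D3:**
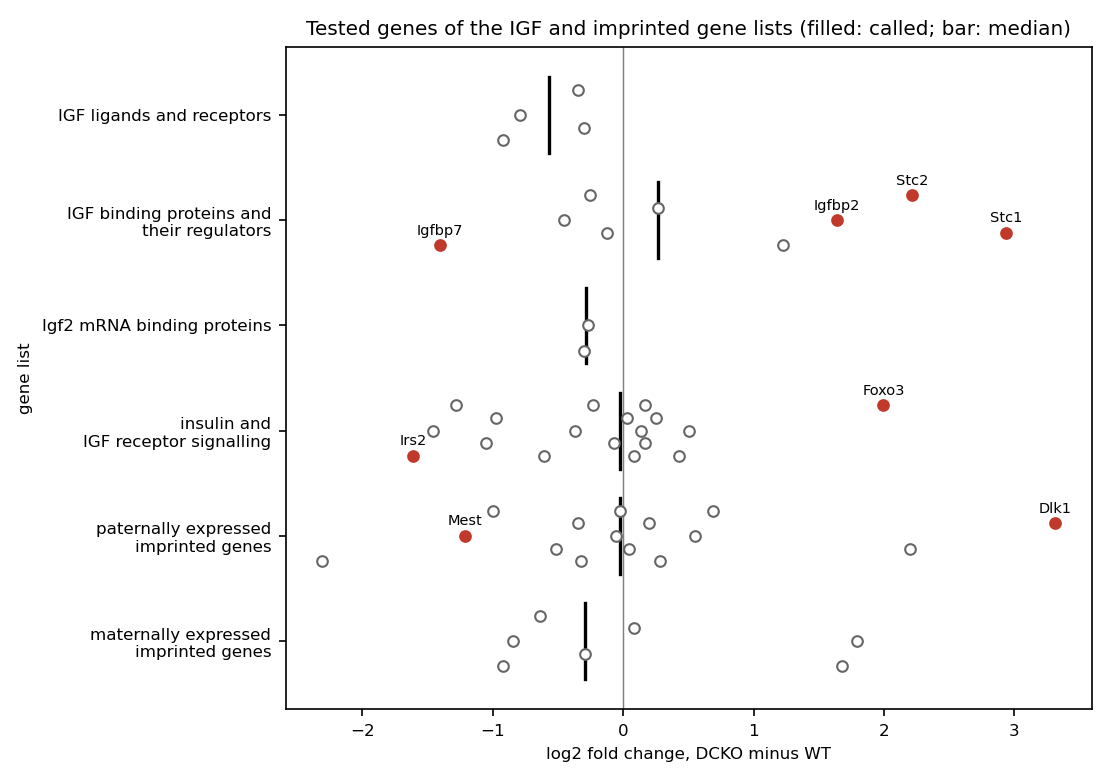
Log2 fold change (DCKO minus WT) of each tested gene by its brightest probe in 6 lists, with called genes filled and named and the list median as a bar. The called genes lie on both sides of 0, and most genes of each list did not pass.

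Of the targeted genes, Ep300 had 4 tested probes and 1 was called lower, by at least 2.87-fold (adjusted p = 0.0159 from limma). No DCKO array detected that probe. Another Ep300 probe, likewise detected only in WT, did not pass (log2 fold change -1.31, adjusted p = 0.0632), but its genotypes were apart. The remaining Ep300 probes were at -0.19 and -0.030 and overlapped. Of 3 Crebbp probes, 0 passed (1 at an unadjusted p under 0.05), at fold changes of -0.097 to -0.76. Where these probes lie relative to the deleted exons is not given in the sources used here. Marker genes of other cells also moved between genotypes, where 4.58% of all tested probes were called, and their part in the results above was not tested. All 8 tested lens markers of 9 listed were lower, at summed intensities of 600 to 682 in DCKO and 17721 to 19082 in WT. Of 10 markers of surface ectoderm and epidermis, 9 were tested and 3 were higher (Trp63, Krt8 and Grhl2), at sums of 9166 to 10491 in DCKO and 8392 to 10089 in WT. Trp63 was detected on 1 WT array and Grhl2 on 2, so Trp63 entered the test mainly through DCKO. By in situ hybridization, the paper reports the opposite for p63, the product of Trp63: its expression was lost in the presumptive lens ectoderm of mutants. Of the 9, 8 had positive fold changes (6 at an unadjusted p under 0.05), with a list median of 0.92. Cdh1, the brightest, had a negative one (-0.82, adjusted p = 0.126 from limma). It was at 11.73 in DCKO and 12.55 in WT, so the sums run partly against the other genes. The periocular mesenchyme and neural crest list had 14 genes, of which 4 were tested. Prrx1 and Col1a2 were higher, but both were undetected on every WT array and so entered the test only through DCKO. The 2 other tested Prrx1 probes did not pass. Pdgfra was lower, and the list had sums of 676 to 1127 in DCKO and 4358 to 4774 in WT. Most of the WT sum was Pdgfra, at 8.49 in DCKO and 12.09 in WT on the log2 scale, and the sum runs opposite to the other 3 genes, which all had positive fold changes (Foxc1 at 1.47, adjusted p = 0.157 from limma), with a list median of 1.46. Another 8, among them Col1a1, Col3a1, Twist1 and Dcn, were detected on fewer than 3 arrays. Of 8 macrophage markers, 7 were tested and 4 were lower, at sums of 228 to 327 in DCKO and 2202 to 3069 in WT, with Aif1, Mpeg1 and Cx3cr1 undetected on every DCKO array. Erythroid markers had 1 lower of 4 tested (sums of 2596 to 3016 in DCKO and 4057 to 5079 in WT) and neuronal markers had 1 higher of 3 tested (437 to 743 in DCKO and 181 to 280.2 in WT). The higher neuronal gene was Isl1, detected on 1 WT array. Neurog2, undetected on every WT array, did not pass by its brightest probe (adjusted p = 0.0541 from limma), but 1 dimmer probe was called higher. Isl1 thus entered the test mainly, and Neurog2 only, through DCKO. Elavl3 went the other way, at -0.63 (adjusted p = 0.308). Endothelial markers (113 to 146 in DCKO and 169 to 366 in WT) and optic vesicle markers (172 to 204 in DCKO and 238 to 347 in WT) had 0 called by limma of 3 and of 2 tested, with 1 lower in each list at an unadjusted p under 0.05. The lower endothelial gene was Tek (-2.29, undetected on every DCKO array), while Kdr at 0.00069 and Emcn at 0.20 overlapped. The lower optic vesicle gene was Mitf at -0.96, while Rax was at 0.52 and overlapped. Neither sum therefore describes its whole list.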

How the data were processed

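Total RNA of microdissected tissue was amplified, labelled and hybridised to Illumina MouseWG-6 v2.0 bead arrays, 3 DCKO and 3 WT. All lay on 1 chip, which leaves no batch between chips. For 45281 probes the authors deposited unnormalized bead intensity, a detection p-value and, separately, processed intensities. GenomeStudio is named as the software, and its version is not given in the sources used here. The processed table holds 25.3% of values below 0; the methods name cubic spline normalization, and the software's own test was not run here. Another 12 columns were not used.

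From the deposited intensity values, log2 levels were obtained in R 4.3.3 by limma 3.58.1 (neqc: normexp background estimated through detection p-values, an offset of 16, then quantiles). Probes were named through the platform annotation, updated by Entrez identifier (34885 with 1 symbol, 18 with several, 10378 unnamed here). A probe was tested if at least 3 arrays had its detection p under 0.05 (19552 probes), using lmFit and eBayes, checked on simulated data. Each gene stands for its brightest tested probe, and every probe of a member is described. In lists, every called gene and the 3 others with the largest change are named, and a few others, such as Irs1, Cdkn1c, Meg3 and Grb10, were chosen after their values were seen. Summed intensities add the normalized linear values of each list's tested genes. The number of arrays limits the precision. Detected probes numbered 18724 to 19551 per DCKO array and 18081 to 19769 per WT array. The members and lists were chosen with earlier results of these data known.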

Additional observations from a re-analysis of the deposited data

How the results depend on the processing

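Of the 16 other settings, Dlk1 was called higher in all 16, Igfbp2 kept its call in 8 and Mest in 8, and no member changed direction. The 6 members that did not pass still did not in any setting, except Igf2r, called lower with no background correction, with eBayes using trend and robust moderation, and with the mean of a gene's probes. With 1 array left out of the fit, called probes numbered 229 to 620 (895 with all arrays), called members 1 to 1 (3 with all), called IGF axis genes 0 to 3 (6 with all) and called imprinted genes 1 to 2 (2 with all). The member called each time was Dlk1. Same-numbered arrays did not deviate together (correlations of 0.010 to 0.033). This gave no sign that the numbers pair the samples, but it cannot exclude a pairing. With the replicate number as a block, limma called 205 probes, 1 member (Dlk1), 1 IGF axis gene (Stc1) and 1 imprinted gene (Dlk1). With no filter on detection, 3 IGF axis genes were called and Igfbp2 was not (adjusted p = 0.0636). With trend and robust moderation, 4 imprinted genes were called. No between-array normalization moved the median of all probes by 0.12 and ended the call of Mest. The cause of these changes was not tested. Fits with 1 array left out also have fewer arrays. Levels near background limit the fold changes of Dlk1, Stc1, Foxo3 and Irs2.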
